A study of Mus musculus with 15 samples.

Results

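The 8 genes described here encode neurotrophic factors of the brain and the receptors that bind or sort them. Bdnf and Ntf3 encode neurotrophins (brain-derived neurotrophic factor and neurotrophin 3), Gdnf and Cntf encode the glial and the ciliary neurotrophic factor, Ntrk2 and Ntrk3 encode the receptor tyrosine kinases TrkB and TrkC, Ngfr encodes the p75 neurotrophin receptor, and Sort1 encodes sortilin. They were chosen by name and are 8 of the 43629 genes counted in the series. RNA of the whole brain was sequenced from 15 male wildtype C57BL/6J mice, 1 library per mouse. The young mice were 3 months old and the old mice 24 months old by the sample labels. Of the young mice, 4 were fed ad libitum (AL, food always present) and 3 every other day (EOD, 24 h with food alternated with 24 h without, begun at 2 months of age), and 4 old mice were on each regimen. The comparisons asked whether transcript levels change with age, whether EOD changes them, and whether EOD alters the change with age.

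Neurotrophins are made as precursors that proteases cleave to mature factors. The mature factors bind Trk receptors, BDNF to TrkB and neurotrophin 3 to TrkC, and all of them bind the p75 receptor, while the uncleaved precursors bind p75 together with sortilin. In the brain this signalling is known for the survival of neurons and for plasticity at synapses, and Bdnf transcription follows neuronal activity. GDNF and CNTF act through other receptor systems, RET with a GFR alpha co-receptor and gp130 with the LIF receptor and the CNTF receptor.

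All positions are on GRCm38. Bdnf (ENSMUSG00000048482) lies at chr2:109674700-109727007 on the plus strand, Ntf3 (ENSMUSG00000049107) at chr6:126101413-126166744 on the minus strand, Gdnf (ENSMUSG00000022144) at chr15:7811011-7837575 on the plus strand and Cntf (ENSMUSG00000079415) at chr19:12763660-12765632 on the minus strand. Ntrk2 (ENSMUSG00000055254) lies at chr13:58806596-59133970 on the plus strand, Ntrk3 (ENSMUSG00000059146) at chr7:78192362-78578408 on the minus strand, Ngfr (ENSMUSG00000000120) at chr11:95568818-95587735 on the minus strand and Sort1 (ENSMUSG00000068747) at chr3:108284091-108361511 on the plus strand. Each gene had 1 count per mouse over all its exons, so that transcripts from different start sites, and full-length and truncated receptor forms of Ntrk2 and Ntrk3, were not separated. Reads were 50 bases long. No stretch of 50 bases in the GENCODE M21 transcripts of a member occurred in those of another member, and with genes outside the set the share was 0.824% or less for every member except Cntf.

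The RefSeq promoter table (GRCm38.p6, 250 bases before to 50 after a start site) held 14 windows for 6 members, 7 of them for Bdnf, 2 each for Ntf3 and Gdnf, and 1 each for Ntrk2, Ngfr and Cntf. The letters TGACGT, or ACGTCA on the other strand, the core of the cAMP response element through which activity-regulated transcription factors act on Bdnf, were searched in each window. They stood in 1 Bdnf window and in 1 Gdnf window, and in 7.51% of all windows of the table. The 2 windows are shown because 1 gene count hides which start was used. The Bdnf start is 1 of 7 that feed the same count. The Gdnf start lies 963 bases before the first base of Gdnf in the annotation used for counting, so that reads from its first bases had no counted exon to fall on. Both run 5′ to 3′ on the plus strand, and capitals mark the searched letters, 36 bases before the start site in Bdnf and 51 bases before it in Gdnf.
Bdnf, chr2:109692186-109692485: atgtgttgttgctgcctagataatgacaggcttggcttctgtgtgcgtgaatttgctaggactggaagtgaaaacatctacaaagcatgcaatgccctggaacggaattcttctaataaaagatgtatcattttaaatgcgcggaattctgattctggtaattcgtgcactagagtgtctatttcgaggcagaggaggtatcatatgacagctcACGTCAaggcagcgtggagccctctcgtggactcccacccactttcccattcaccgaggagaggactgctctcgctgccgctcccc
Gdnf, chr15:7809798-7810097: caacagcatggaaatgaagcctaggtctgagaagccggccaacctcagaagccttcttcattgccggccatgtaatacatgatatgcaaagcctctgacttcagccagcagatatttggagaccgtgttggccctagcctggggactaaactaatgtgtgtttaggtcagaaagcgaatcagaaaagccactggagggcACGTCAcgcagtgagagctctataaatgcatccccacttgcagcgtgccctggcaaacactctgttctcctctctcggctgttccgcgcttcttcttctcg

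For Cntf the annotation limits what could be counted. Of its 1073 exon bases, 847 (78.9%) are also exon of Zfp91 on the same strand, through a Zfp91 transcript that runs on into Cntf, and a read that lies on exons of 2 genes is counted for neither by the counter's default. All 594 coding bases of Cntf (stop codon left out) are in the shared part. The 226 bases of Cntf alone, chr19:12765407-12765632, are in its 5′ UTR, and a read of 50 bases can start at 177 positions wholly within them. The coding bases of exon 1, chr19:12765281-12765394 on the minus strand, are shown as an example of sequence whose reads reached neither gene, with the start codon in capitals.
Cntf, coding part of exon 1: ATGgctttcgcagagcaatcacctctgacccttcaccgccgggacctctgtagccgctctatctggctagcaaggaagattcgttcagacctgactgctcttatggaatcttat

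**Figure D1:**
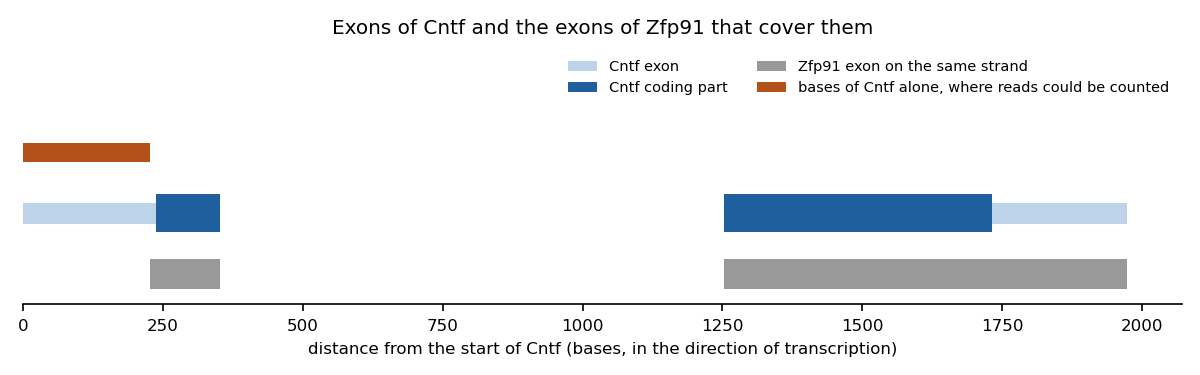
Map of the Cntf gene by distance in bases from its start, in the direction of transcription: exons (light blue), coding part without the stop codon (dark blue), exons of Zfp91 on the same strand (grey) and the 226 bases of Cntf alone (orange). The orange stretch ends before the coding part begins, and grey covers the other 847 exon bases.

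Total counts per mouse ranged from 5198748 to 13610729 (median 9886766). The third young AL mouse stood apart at low levels. Among 2022 genes with a mean of 1 to 3 CPM (counts per 1000000, scaled with TMM factors) in the other 14 mice, 232 (11.5%) had no count in it, against at most 0.445% in any other mouse. Ntf3, Gdnf and Cntf each had no count in this mouse, which at its depth allows up to 0.226 CPM (3 counts, counting error only), and it had the highest Sort1 and Ntrk3 levels of the 15 mice. For some of the results it moved, the value without it is given too. The neuron, astrocyte and oligodendrocyte markers each summed to at least 4183 CPM in every mouse, which matched brain but not a given region. Pituitary markers reached 981 CPM in 1 old AL mouse against 17.2 CPM or less in the other 14 mice. Of 4 cerebellar markers, Gabra6 was at 0.0915 CPM or less in young mice. It ranged from 0.0839 to 13.2 CPM in old AL and from 0 to 4.55 CPM in old EOD mice. Pcp2 (3.10 to 6.61 CPM), Cbln1 (13.9 to 32.7 CPM) and Calb1 (153.6 CPM or more) were counted in every mouse. Whether all mice held a like share of cerebellum was not tested.

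Per transcript length, Sort1 and Ntrk2 were far above the other members. On the TPM scale (transcripts per 1000000, length-scaled), mean levels over the 15 mice were 314 ± 18.2 (SD) for Sort1 and 219 ± 16.3 for Ntrk2, 27.8 ± 3.21 for Bdnf and 26.7 ± 4.74 for Ntrk3. Sort1 was above Ntrk2, Ntrk2 above Bdnf and Ntrk3 in all 15 mice, whereas Bdnf was above Ntrk3 in 8 of 15 mice, so that this pair did not differ beyond its spread. Ngfr (4.53 ± 1.55 TPM) and Ntf3 (4.03 ± 1.98 TPM) followed, with Ngfr the higher in 8 of 15 mice. Gdnf (0.672 ± 0.396 TPM) was the lowest of these 7. Cntf (0.368 ± 0.457 TPM) is not placed in this order, since its TPM is computed over all its exon bases although few of them could be counted. Among the 15864 genes tested, Sort1 was at percentile 97.3 and Ntrk2 at percentile 95.5 of mean TPM, Bdnf at 59.9, Ntrk3 at 59.0 and Gdnf at 1.25. TrkB transcript thus exceeded that of its ligand in every mouse, with a ratio of Ntrk2 to Bdnf TPM of 7.12 ± 1.07 in young AL mice, 8.41 ± 0.562 in young EOD mice, 7.97 ± 0.546 in old AL mice and 8.49 ± 0.688 in old EOD mice (SD). These ratios overlapped between all groups except that the lowest young EOD value, 8.06, was just above the highest young AL value, 8.01. Of all tested genes, 4.45% did not overlap between these groups of young mice, and the share for ratios of 2 genes was not computed.

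**Figure D2:**
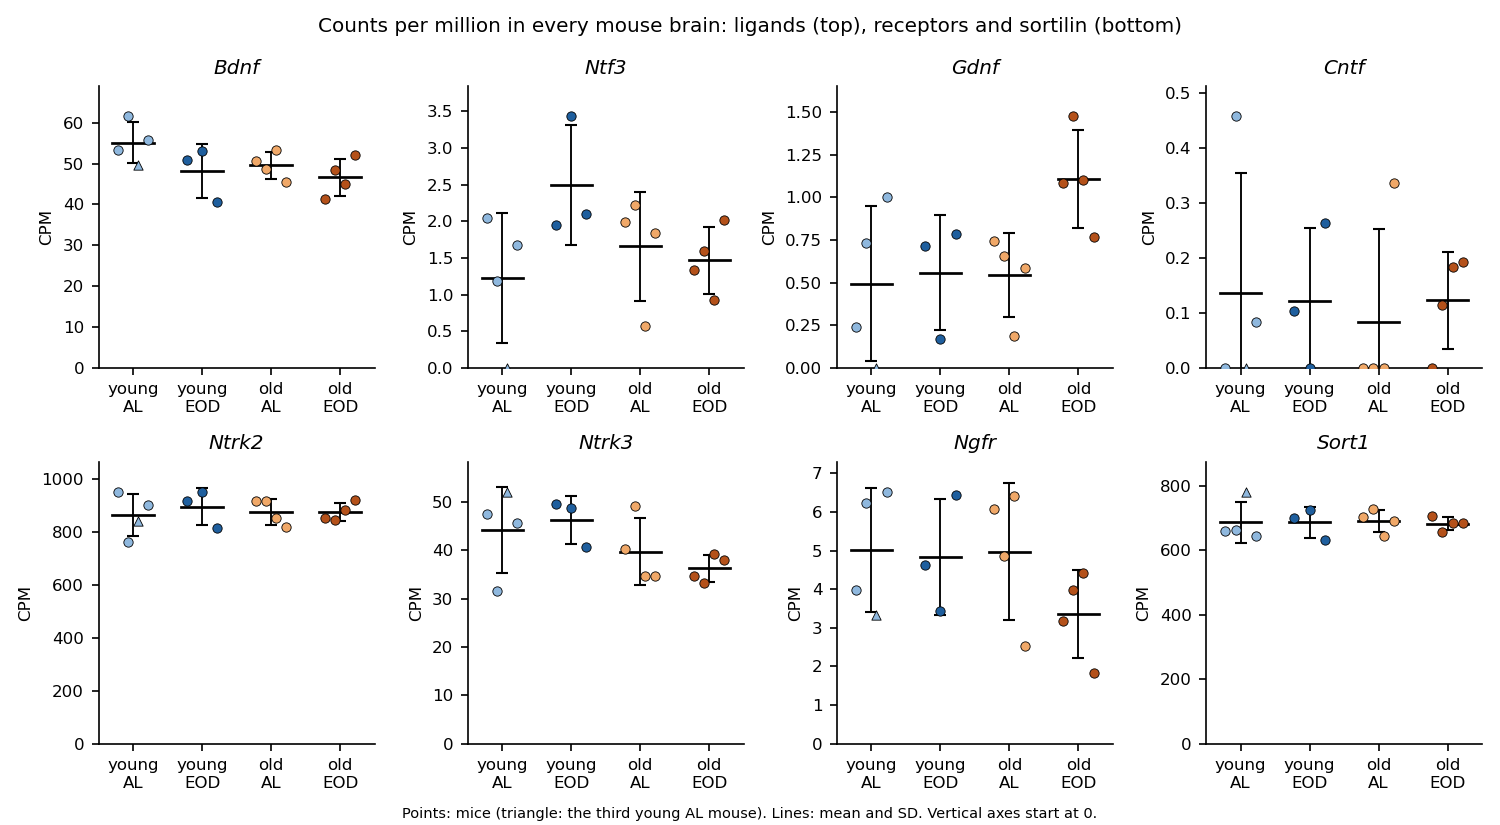
Counts per 1000000 (CPM, vertical axes from 0) of the 8 genes in every mouse by group, ligands above and receptors and sortilin below; points are mice, the triangle is the third young AL mouse, and lines give mean and SD (an SD reaching below 0 is cut at the axis). The Ntrk2 and Sort1 points lie at like heights in all groups, the old EOD points of Ntrk3 lie below the young EOD points, and the old EOD points of Gdnf lie above the old AL points.

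No member passed the threshold of an adjusted p under 0.1 (edgeR's quasi-likelihood test, Benjamini-Hochberg adjusted over 15864 genes) in any comparison. Of the 8 genes, 7 were tested and Cntf had too few counts for the filter. Age changed 1.09% of all tested genes in AL mice, 0.290% in EOD mice and 2.30% when averaged over diets, and 0 of 7 members in each. DESeq2 also called 0 of 7 members in each of the 7 comparisons. At an unadjusted p under 0.05, edgeR had 0 of 7 members for age in AL mice against 9.52% of all genes, and 1 of 7, Ntrk3 each time, in EOD mice (5.74% of all genes) and averaged over diets (11.7%). For diet in young mice, diet in old mice, diet averaged over ages and the interaction of age and diet, 0% of all genes passed in edgeR, and DESeq2 called 1, 0, 0 and 0 genes. In these 4 comparisons 657, 409, 715 and 362 of all genes, and 0 members, had an unadjusted p under 0.05. Median log2 fold changes of the 7 members were -0.10 for age averaged over diets and -0.01 for diet averaged over ages, beside -0.0049 and 0.00037 over all genes tested.

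Bdnf, the ligand of TrkB, varied little between mice. It stood at 53.3, 61.6, 49.7 and 55.7 CPM in the young AL mice and at 50.9, 53.1 and 40.6 CPM in the young EOD mice. In the old mice it stood at 50.7, 48.6, 53.3 and 45.6 CPM on AL and at 41.2, 48.3, 45.0 and 52.0 CPM on EOD. The 4 groups overlapped, the highest value was in a young AL mouse, and the 3 lowest values were in EOD mice, 1 young and 2 old. Averaged over ages, the EOD to AL difference was -9.22% (log2 fold change -0.14, SE 0.074, 95% interval -18.4% to 1.01%, edgeR adjusted p = 0.983, unadjusted p = 0.0734). It was -12.6% in young mice (interval -25.3% to 2.21%) and -5.69% in old mice (interval -18.4% to 9.03%), neither past the threshold, and the difference between these effects was not past it either (edgeR adjusted p = 1.0). Without the third young AL mouse the averaged difference was -0.16 on the log2 scale (95% interval -0.31 to -0.011, unadjusted p = 0.0368, edgeR adjusted p = 0.814). In young mice it was then -0.24 (95% interval -0.47 to -0.012, unadjusted p = 0.0398, edgeR adjusted p = 0.9998). Leaving out the second young AL mouse instead weakened both. The averaged difference was then -0.11 (unadjusted p = 0.152, edgeR adjusted p = 0.891). That in young mice was -0.14 (unadjusted p = 0.237, edgeR adjusted p = 0.898). With each mouse left out in turn, the averaged difference ranged from -0.17 to -0.084. Within the 3 sequencing lanes, known only from the alignment names in the file headers, the mean log2 CPM in EOD mice minus that in AL mice was -0.26, -0.10 and -0.059. These values pool young and old mice, and the third lane held no young EOD mouse. Its old mice had 45.6 CPM on AL and 45.0 and 52.0 CPM on EOD, so that its value does not compare mice of like age. With age, the averaged difference was -6.80% (interval -16.2% to 3.69%, edgeR adjusted p = 0.635). The averaged interval leaves a Bdnf level up to 18.4% lower under EOD possible and ends at an increase of 1.01%, and that of young mice reaches further down.

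Ntf3, which encodes the ligand of TrkC, was counted at 3 to 22 reads in the mice that had any. Its levels were 2.05, 1.19, 0 and 1.67 CPM in young AL mice and 1.95, 3.43 and 2.10 CPM in young EOD mice, with the 0 in the third young AL mouse. Old AL mice had 1.99, 2.23, 0.567 and 1.85 CPM and old EOD mice 1.34, 1.59, 0.920 and 2.02 CPM. The highest value was in a young EOD mouse, and the groups overlapped. The diet difference in young mice was smaller without the mouse with no count. Its log2 fold change was 1.05 (SE 0.600, edgeR adjusted p = 0.996) with that mouse and 0.58 without it (edgeR adjusted p = 0.9998). The interaction of age and diet moved likewise, from -1.27 to -0.83, and the age difference in AL mice moved from 0.53 to 0.10, none past the threshold. With age, the averaged interval ran from -48.8% to 69.6%, and a change of Ntf3 within it was not detectable at this depth.

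Gdnf, a survival factor for dopaminergic and motor neurons, was near the limit of counting, with 0 to 13 reads per mouse. It stood at 0.241, 0.732, 0 and 1.0 CPM in young AL mice and at 0.718, 0.172 and 0.788 CPM in young EOD mice. Old AL mice had 0.745, 0.655, 0.189 and 0.588 CPM, and old EOD mice had 1.09, 1.48, 1.10 and 0.769 CPM. Every old EOD mouse was above every old AL mouse, as was the case for 1.24% of all tested genes. The difference in old mice was 0.94 on the log2 scale (SE 0.617, 95% interval -0.35 to 2.22, unadjusted p = 0.144, edgeR adjusted p = 1.0). In the fit without the third young AL mouse it was 0.92 (95% interval -0.0076 to 1.86, unadjusted p = 0.0517, edgeR adjusted p = 0.995). The total behind this difference was 46 reads in the 4 old EOD mice and 19 reads in the 4 old AL mice, which differed in depth. Total counts ranged from 8653827 to 11977663 in the old EOD mice and from 5198748 to 11911721 in the old AL mice. The lowest old EOD mouse had 8 reads (0.769 CPM) and the highest old AL mouse 6 reads (0.745 CPM). In young mice the same comparison gave 0.24 with the third AL mouse and -0.21 without it, and the interaction gave 0.69 and 1.14, with an edgeR adjusted p of 1.0 either way.

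Cntf, a cytokine of astrocytes and Schwann cells, had 18 reads in all 15 mice together, in 8 of them. Read counts were 0, 5, 0 and 1 in young AL mice, 1, 0 and 2 in young EOD mice, 0, 0, 0 and 4 in old AL mice and 0, 1, 2 and 2 in old EOD mice. Every group held at least 1 mouse with no read, and the groups overlapped. Exact two-sided permutation tests of mean CPM gave p = 0.714 for age in AL mice, 0.971 for age in EOD mice, 1 for diet in young mice and 0.83 for diet in old mice, where the smallest p the designs allow is 0.0286 with 4 against 4 mice and 0.0571 with 4 against 3. Because reads on its coding sequence were not counted, these values do not measure the level of the Cntf transcript, and no change of it was detectable.

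Ntrk2, the TrkB receptor gene, was among the most even of the members. It stood at 949, 762, 841 and 900 CPM in young AL mice and at 915, 950 and 815 CPM in young EOD mice. Old AL mice had 916, 915, 852 and 817 CPM and old EOD mice 851, 843, 882 and 921 CPM. The groups overlapped throughout, and the lowest value and the second highest were both in young AL mice. Age, averaged over diets, gave a difference of -0.362% (interval -7.60% to 7.45%, edgeR adjusted p = 0.984), and diet, averaged over ages, gave 1.74% (interval -5.66% to 9.71%, edgeR adjusted p = 0.987). The coefficient of variation over the 15 mice was 6.24%, and both averaged intervals stayed within 9.71% of no change.

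Ntrk3, the TrkC receptor gene, was the member with the smallest p for age. Its levels were 47.5, 31.6, 52.1 and 45.6 CPM in young AL mice and 49.5, 48.8 and 40.7 CPM in young EOD mice. Old AL mice had 40.4, 49.3, 34.8 and 34.7 CPM, and old EOD mice had 34.7, 33.2, 39.2 and 38.1 CPM. Every old EOD mouse was below every young EOD mouse, as was the case for 4.29% of all tested genes, whereas old and young AL mice overlapped, the second young AL mouse having the lowest level of all 15. In EOD mice the age difference was -21.6% (log2 fold change -0.35, SE 0.146, interval -36.6% to -3.23%, unadjusted p = 0.0256, edgeR adjusted p = 0.791), and in AL mice it was -10.1% (log2 fold change -0.15, interval -26.0% to 9.28%). Without the third young AL mouse the AL difference was -0.056 on the log2 scale (edgeR adjusted p = 0.988) and the interaction -0.29. The interaction was not past the threshold (-0.20 on the log2 scale, SE 0.199, edgeR adjusted p = 1.0), so that the age effects of the 2 diets were not shown to differ.

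Averaged over diets, the Ntrk3 level was 45.1 ± 6.97 CPM (SD, n = 7) in young mice and 38.0 ± 5.20 CPM (n = 8) in old mice. The difference was -16.1% (log2 fold change -0.25, SE 0.0997, interval -27.3% to -3.09%, unadjusted p = 0.0194, edgeR adjusted p = 0.291). Its direction was the same in all 22 settings, between -0.32 and -0.20 on the log2 scale, and it passed the threshold in 2 of them. These were the fit on every gene with at least 1 count (edgeR adjusted p = 0.0929) and the fit without the second young AL mouse (-0.32, edgeR adjusted p = 0.0656). Without the third young AL mouse it was -0.20 (unadjusted p = 0.0499, edgeR adjusted p = 0.421). Within the 3 lanes, with both diets pooled, the old minus young difference of mean log2 CPM was -0.17, -0.29 and -0.29. The last rested on 1 young mouse, fed AL. Beside it, the summed level of 6 neuron markers ranged from 7188 to 9035 CPM in young and from 6973 to 7951 CPM in old mice. The 9035 CPM was in the third young AL mouse, and the other 14 mice reached 8071 CPM at most. Of the 6 markers, 5 were lower in old mice and 0 passed the threshold in edgeR (1 at an unadjusted p under 0.05, 0 in DESeq2). Their part in the Ntrk3 difference was not tested. In bulk brain RNA, fewer cells of a type and less RNA per cell cannot be told apart.

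**Figure D3:**
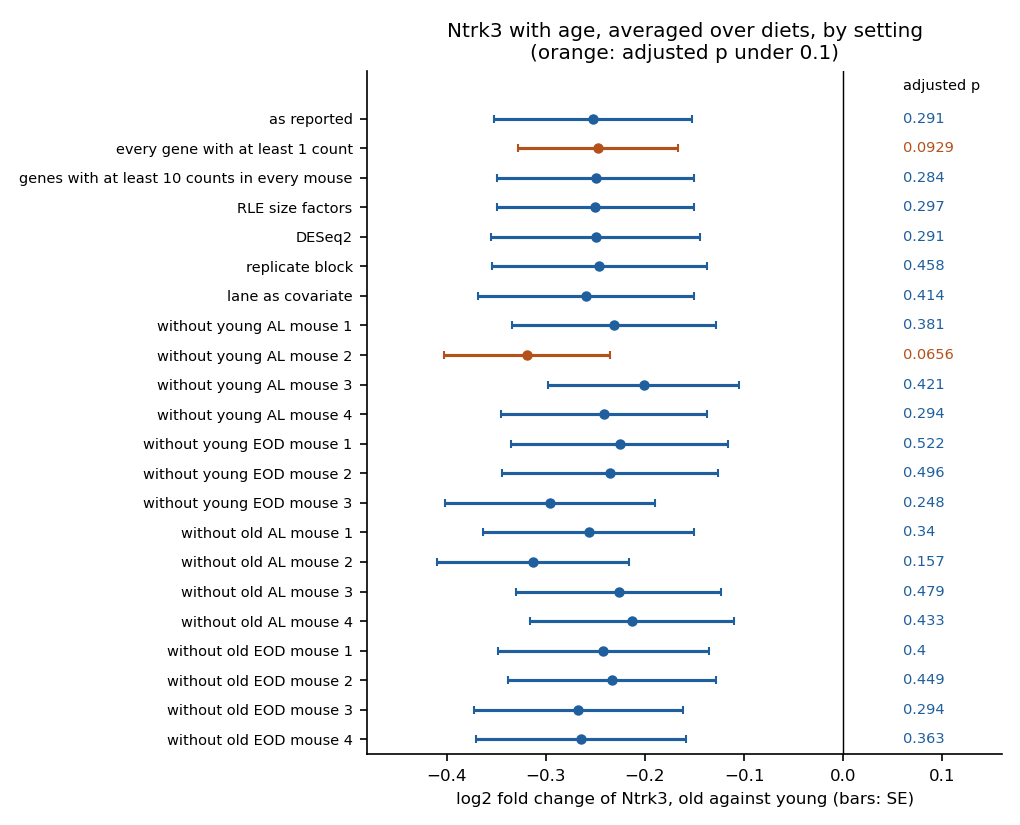
Log2 fold change of Ntrk3 in old against young mice, averaged over diets (horizontal axis, bars give the SE), for each way of processing the counts and for each mouse left out (vertical axis), with the adjusted p at the right; orange marks an adjusted p under 0.1. All 22 estimates lie between -0.32 and -0.20, and 2 are orange.

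Ngfr, the p75 receptor gene, was at 3.97, 6.22, 3.32 and 6.52 CPM in young AL mice and at 4.61, 3.43 and 6.43 CPM in young EOD mice. Old AL mice had 6.09, 4.85, 6.42 and 2.52 CPM and old EOD mice 3.18, 3.98, 4.41 and 1.83 CPM. The old EOD group had the lowest mean and the lowest single mouse, but it overlapped every other group. The diet difference in old mice was -30.7% (interval -56.6% to 10.6%, unadjusted p = 0.117, edgeR adjusted p = 1.0), and the averaged age difference was -18.7% (interval -41.9% to 13.9%, edgeR adjusted p = 0.669), or -0.39 on the log2 scale without the third young AL mouse in place of -0.30. Cholinergic neurons of the basal forebrain are the best known adult brain cells with p75. The 3 genes that mark cholinergic neurons ranged in summed level from 14.6 to 40.3 CPM in young and from 17.8 to 31.9 CPM in old mice. The 14.6 CPM was in the third young AL mouse. Among old mice they ranged from 17.8 to 31.9 CPM on AL and from 20.7 to 29.0 CPM on EOD. In either comparison 0 of 3 passed the threshold in edgeR (0 at an unadjusted p under 0.05, 0 in DESeq2). The 6 markers of meningeal and perivascular fibroblasts ranged in summed level from 152 to 200 CPM in young and from 121 to 226 CPM in old mice. Among old mice this was 121 to 226 CPM on AL and 152 to 180 CPM on EOD. In either comparison 0 of these 6 passed in edgeR (1 at an unadjusted p under 0.05 with age, 0 in DESeq2). The part of either cell type in the Ngfr differences was not tested.

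Sort1, which encodes sortilin, a sorting receptor for proneurotrophins, was the most even member. It stood at 660, 662, 781 and 643 CPM in young AL mice and at 701, 725 and 633 CPM in young EOD mice. Old AL mice had 702, 728, 646 and 692 CPM and old EOD mice 707, 655, 684 and 685 CPM. The highest value was in the third young AL mouse, apart from the other young AL mice (643 to 662 CPM), and the remaining mice overlapped. The averaged difference was 0.139% for age (interval -6.86% to 7.66%) and -0.691% for diet (interval -7.63% to 6.77%). Without the third young AL mouse the age difference was 0.041 on the log2 scale (unadjusted p = 0.371, edgeR adjusted p = 0.790).

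**Figure D4:**
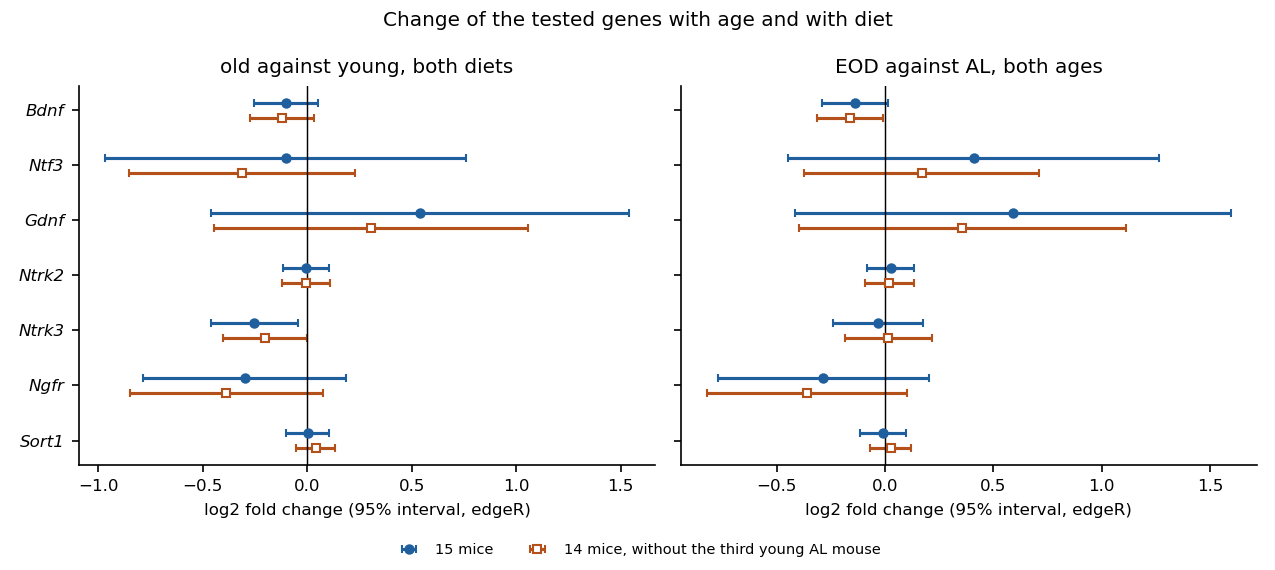
Log2 fold change with its 95% interval (horizontal axes) for the 7 tested genes (vertical axis), with age averaged over diets at the left and with diet averaged over ages at the right; filled points use 15 mice and open squares the 14 mice without the third young AL mouse. Intervals of Ntrk2 and Sort1 are narrow around 0, those of Ntf3 and Gdnf are wide, and with 15 mice the interval of Ntrk3 with age is the one that lies wholly below 0.

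Ntf5, which encodes neurotrophin 4, a further ligand of TrkB that was not chosen as a member, had 16 reads in 8 of the 15 mice and was not tested.

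Genes around the members were read in 6 hand-written lists, of which 3 held 1 or 2 genes past the threshold for age and none held any for diet. Of 18 listed genes for cleavage, sorting and transport of proneurotrophins, 16 were tested. Pcsk6, a proprotein convertase, rose with age averaged over diets (0.30 on the log2 scale, SE 0.078, edgeR adjusted p = 0.0587), where 2.30% of all tested genes passed. The other 15 did not pass. It ranged from 17.9 to 25.2 CPM in young and from 25.6 to 28.8 CPM in old mice, without overlap, every old mouse being above every young mouse for 0.750% of all tested genes. The call was lost with lane as a covariate (edgeR adjusted p = 0.143) and without the third young EOD mouse, the second or the third old AL mouse, or the second or the fourth old EOD mouse (adjusted p from 0.10 to 0.177). Of 11 partners of p75, all tested, 0 passed for age or diet (edgeR, 1 and 2 at an unadjusted p under 0.05 when averaged, DESeq2 0). The smallest p was that of Lingo1, a p75 co-receptor at neurons and oligodendrocytes, at -0.27 with diet (SE 0.086, unadjusted p = 0.00527, edgeR adjusted p = 0.983) and -0.24 with age (edgeR adjusted p = 0.222). With every gene that had at least 1 count tested, both Lingo1 differences passed, at an edgeR adjusted p of 0.0108 for diet, where 0.247% of all genes in that fit passed, and 0.0118 for age, where 2.49% did. Markers of striatal neurons were lower under EOD in the same comparison, 3 of 3 at an unadjusted p under 0.05 and 0 past the threshold in edgeR (DESeq2 0), with a median log2 fold change of -0.34. Their summed level ranged from 242 to 344 CPM in young AL, 178 to 271 CPM in young EOD, 263 to 335 CPM in old AL and 206 to 307 CPM in old EOD mice, and their part in the Lingo1 difference was not tested.

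Of 32 adaptors and kinases downstream of Trk receptors, all tested, 2 rose with age averaged over diets and 30 did not pass. Of all tested genes 2.30% passed in this comparison. The median log2 fold change of the list was -0.02, beside -0.0049 over all genes. Mapk3, the kinase ERK1, rose by 0.26 on the log2 scale (SE 0.057, edgeR adjusted p = 0.0199), from 104 to 136 CPM in young mice to 134 to 156 CPM in old mice, and the call held with each mouse left out in turn. Gab1, a docking protein between receptors and the PI3 kinase pathway, rose by 0.35 (SE 0.090, edgeR adjusted p = 0.0521). It ranged from 19.8 to 35.9 CPM in young mice, lowest in the third young AL mouse, and from 32.2 to 41.2 CPM in old mice, and the call was lost without the second or the third young EOD mouse, the first or the third old AL mouse, or the second old EOD mouse (edgeR adjusted p from 0.105 to 0.154). In AL mice alone, where 1.09% of all tested genes passed, both rose as well. Gab1 rose by 0.52 (edgeR adjusted p = 0.0496), or by 0.40 without the third young AL mouse (edgeR adjusted p = 0.109), and Mapk3 by 0.30 (edgeR adjusted p = 0.0791). The calls were lost in 5 and 8 of the 15 fits that left out 1 mouse. That of Mapk3 was also lost with lane as a covariate (edgeR adjusted p = 0.158).

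Of 15 genes known to be induced by neuronal activity or BDNF, all tested, 0 passed for age or diet with 15 mice in edgeR (DESeq2 0). With age averaged over diets, 13 of 15 were lower in old mice, the list's median was -0.17 beside -0.0049 over all genes, and 2 had an unadjusted p under 0.05. Nptx2, a secreted pentraxin that clusters AMPA receptors at synapses, had the smallest p for age (-0.26, SE 0.083, edgeR adjusted p = 0.165) and for diet (-0.34, SE 0.084, unadjusted p = 0.000544, edgeR adjusted p = 0.983). It stood at 43.9, 52.0, 40.4 and 52.4 CPM in young AL mice, 36.1, 39.8 and 38.2 CPM in young EOD mice, 33.5, 42.9, 48.9 and 36.6 CPM in old AL mice and 32.6, 32.6, 28.7 and 30.5 CPM in old EOD mice. At both ages every EOD mouse was below every AL mouse, as was the case for 2.05% of all tested genes in young and 1.36% in old mice. The list as a whole did not share the direction of Nptx2 with diet, 9 of 15 genes being higher under EOD averaged over ages (median 0.086, beside 0.00037 over all genes). Other genes were lower under EOD at an unadjusted p under 0.05 as well. Among them were the 3 striatal markers above and Gfap of astrocytes (-0.24, unadjusted p = 0.000274, edgeR adjusted p = 0.983). Of the 6 astrocyte markers, however, 4 were higher under EOD (median 0.035). The part of the striatal and astrocyte markers in the Nptx2 difference was not tested. With every gene that had at least 1 count tested, the diet difference of Nptx2 passed at an edgeR adjusted p of 0.0233 (0.247% of all genes passed), and 6 genes of the list passed for age averaged over diets (2.49% of all genes).

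The count of the list for age also moved with the third young AL mouse. Without it, 2.56% of all genes passed and 2 of 15 genes of the list fell with age averaged over diets, Nptx2 (-0.29, edgeR adjusted p = 0.0716) and Npas4 (-0.71, edgeR adjusted p = 0.0503). Npas4, an activity-induced transcription factor of neurons, is named here after its values were seen. It had no count in that mouse, 5.42, 8.97 and 12.4 CPM in the other young AL mice, 8.41, 11.2 and 11.4 CPM in young EOD mice, 10.3, 6.68, 7.18 and 5.12 CPM in old AL mice and 6.11, 5.23, 3.49 and 4.04 CPM in old EOD mice. Every old EOD mouse was below every young EOD mouse (4.29% of all tested genes). The difference was -1.11 on the log2 scale without the third young AL mouse (edgeR adjusted p = 0.0916) and -1.12 with it (SE 0.570, edgeR adjusted p = 0.904). In the fit with no further filter on counted genes it was -1.11, with an SE of 0.238 (edgeR adjusted p = 0.00168). DESeq2 gave -1.13 with an SE of 0.897 (unadjusted p = 0.209, adjusted p = 0.999). The old and young AL mice overlapped.

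Of 10 genes of the GDNF family and its receptors, 6 were tested and 0 passed for age or diet (edgeR, 0 at an unadjusted p under 0.05 when averaged, DESeq2 0). Gfra4, a GFR alpha co-receptor, had the smallest p in any comparison, for diet in old mice (-0.31, unadjusted p = 0.0440, edgeR adjusted p = 1.0). Of 18 genes of the CNTF receptor complex, its cytokine family and its signalling, 13 were tested. With age averaged over diets 11 of them were higher in old mice, with a median of 0.17 beside -0.0049 over all genes. Past the threshold 2 rose, where 2.30% of all tested genes passed. Osmr, a cytokine receptor subunit that pairs with gp130, rose by 0.72 with age (SE 0.166, edgeR adjusted p = 0.0273), from 3.28 to 5.43 CPM in young mice to 3.95 to 7.86 CPM in old mice, and the call held with each mouse left out. Stat3, the transcription factor downstream of gp130, rose by 0.22 (SE 0.060, edgeR adjusted p = 0.0692), and this call was lost with lane as a covariate (edgeR adjusted p = 0.128) and without the second young AL mouse, the first or the third young EOD mouse, the first, the second or the third old AL mouse, or the first, the second or the fourth old EOD mouse (edgeR adjusted p from 0.111 to 0.214). Some glial markers moved in the same comparison. Gfap, the astrocyte filament gene, rose by 1.16 (edgeR adjusted p = 2.26e-11) as the 1 of 6 astrocyte markers past the threshold, 4 of the 6 being lower in old mice (median -0.042), and the complement gene C1qa of microglia by 0.96 (edgeR adjusted p = 3.26e-06), with 3 of 6 microglia markers past the threshold. The summed level of 6 microglia markers ranged from 217 to 234 CPM in young mice and from 245 to 293 CPM in old mice, that of 6 astrocyte markers from 4183 to 4955 and from 4264 to 5016 CPM. Their part in the Osmr and Stat3 differences was not tested.

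**Figure D5:**
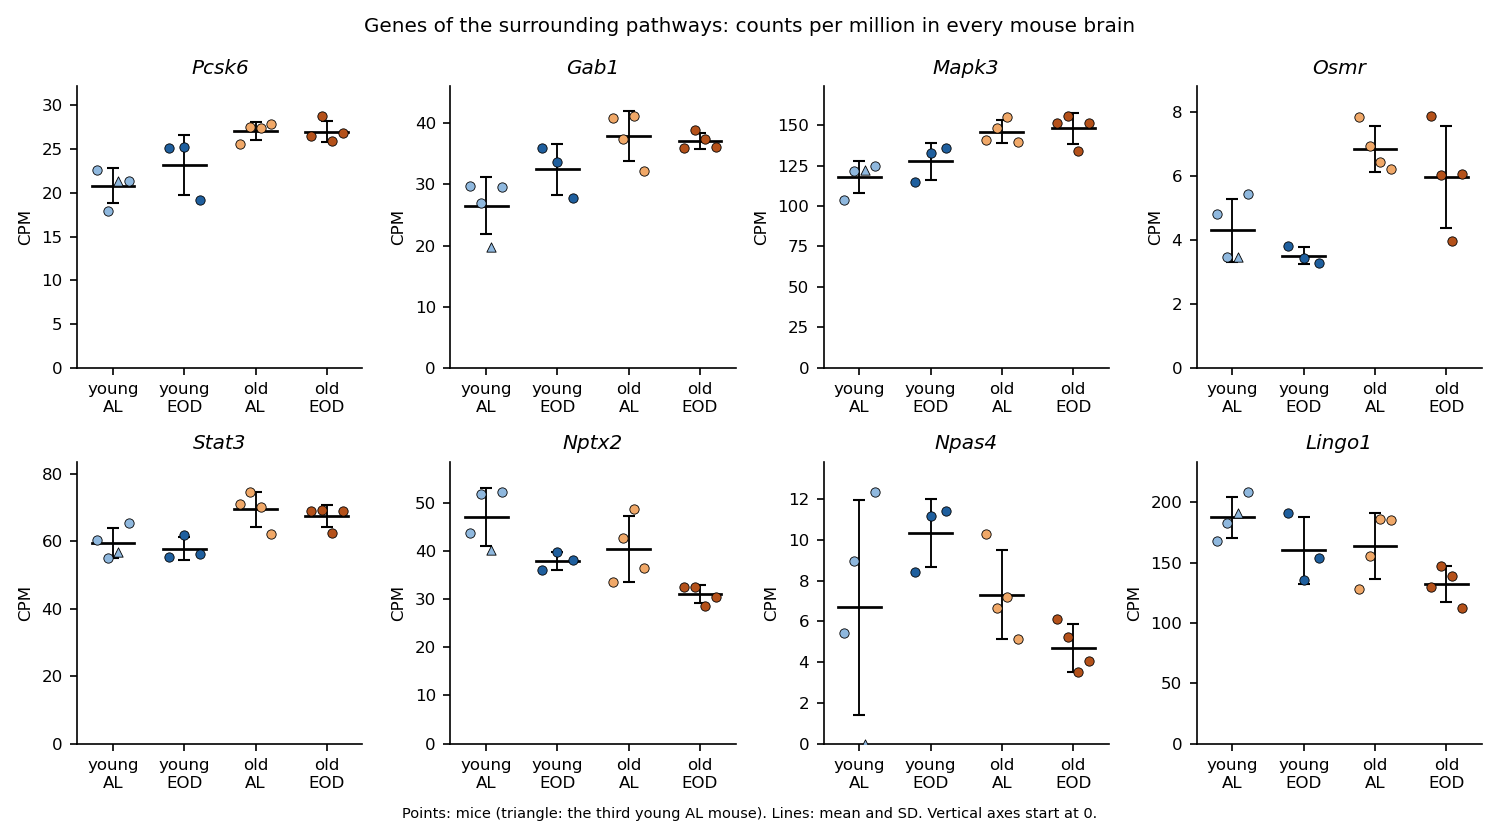
Counts per 1000000 (CPM, vertical axes from 0) of 8 genes from the surrounding pathways in every mouse by group; points are mice, the triangle is the third young AL mouse, and lines give mean and SD. The old mice lie higher for Pcsk6, Gab1, Mapk3, Osmr and Stat3, the EOD points of Nptx2 lie below the AL points at each age, and the triangle of Npas4 is at 0.

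The genes whose log2 CPM followed each member most closely over 14 mice (the third young AL mouse left out) were, for Ntrk2, Lyst (Pearson r = 0.957; 0.935 over 15 mice) and Bptf (0.944; 0.939). For Ntrk3 they were Tenm3 (0.947; 0.804) and Zfp871 (0.918; 0.924), for Bdnf Fmnl1 (0.872; 0.857) and Psmd11 (0.847; 0.630), and for Ngfr Slc13a3 (0.859; 0.847) and Gjb2 (0.846; 0.739). For Sort1 they were Srek1ip1 (0.792; 0.521) and Clip1 (0.789; 0.531), and for Gdnf Pcgf2 (0.846; 0.353) and Bpnt1 (0.831; 0.746). For Ntf3 they were Gm37773 (0.911; 0.189) and ENSMUSG00000063254 (0.861; 0.0599). Each is the highest of 15864 correlations over mice that share library and depth, and those of Ntf3 and of Pcgf2 with Gdnf did not hold once the mouse without their reads was added.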

How the data were processed

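RNA from whole brain was sequenced as 50-base single reads, 1 library per mouse (15 mice). Per the study's methods and the file headers, the authors aligned trimmed reads to GRCm38 with STAR and made counts with featureCounts 1.5.0-p1 on Ensembl release 79 exons (minimum mapping quality 5, reverse-stranded, primary alignments, reads on 2 genes not counted). The deposited values are raw counts of 43629 genes, of which 42462 were given a symbol. The members and gene lists were chosen with earlier results of these data known.

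All genes were fitted in 1 model of the 4 group means with edgeR 4.0.16 in R 4.3.3 (filterByExpr, TMM, quasi-likelihood test, Benjamini-Hochberg adjustment, threshold 0.1), and 7 contrasts were taken. SEs were taken from the F statistic (absolute log2 fold change over its root). CPM use TMM-scaled totals, and TPM were computed from counts and the exon lengths in the files. Log2 CPM used a prior count of 2. Cntf, below the filter, was tested by exact permutation (SciPy 1.17.1). The steps were tested on simulated counts. Alternatives were all genes with a count, a filter of 10 or more counts in each mouse, RLE factors, DESeq2 1.42.0, lane or replicate number in the model, a threshold of 0.05, CPM by plain totals for Cntf, and each mouse left out. DESeq2 was the study's tool. Labels do not tie same-numbered mice to a litter or day.

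Named genes are the 8 members, Ntf5, in each list those past the threshold in any of 7 comparisons or else the one with the smallest p, and for each tested member the 2 genes with the highest Pearson r of log2 CPM. Npas4 falls outside this rule. Some genes that the rule names are not reported here. Each mouse was 1 sample, since 21 replicate pairs differed by a chi-square per degree of freedom of at least 3.01. At totals of 5198748 to 13610729 counts, genes under 1 CPM rest on few reads. Intervals of counts cover counting error only.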

Additional observations from a re-analysis of the deposited data

Results flagged for a closer look

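Among 24 groups of 4 mice examined for a mouse apart (8 members in the 3 groups of 4), 2 held one by Dixon's ratio. Chance flags about 1 in 20 groups of normally distributed values, a rate that does not hold for counts as low as those of Cntf. Sort1 stood at 781 CPM in the third young AL mouse, against 643 to 662 CPM in the other 3. Cntf stood at 0.336 CPM in the fourth old AL mouse, 4 reads, and at 0 in the other 3. With the other 3 at 0, any read gives a Dixon ratio of 1, so that this flag follows from the zeros.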

How the results depend on the processing

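Each of 49 member values was set beside its alternatives, in 1001 comparisons in all. Side of the threshold and direction were kept in 931 of them, 2 passed the threshold (both Ntrk3 with age averaged over diets) and 68 turned sign without passing it. The fit on every gene with at least 1 count moved most: 444 genes (173 as reported) passed for age in AL mice, 100 (46) under EOD and 653 (365) averaged, and where 0 had passed for diet there were 26 in the young, 27 in the old and 65 averaged, with 26 for the interaction, and 1 member passed for age averaged over diets. DESeq2 gave 72 genes for age in EOD mice and 1 for diet in young mice, lane as a covariate 237 for age averaged over diets and 2 for diet in old mice, and a threshold of 0.05 left 229 for age averaged over diets. The cause was not tested. Ntf3 and Gdnf had no value in the fit on genes with 10 or more counts in each mouse. With 1 mouse left out, the genes past the threshold ranged from 102 to 221 for age in AL mice, from 19 to 76 under EOD and from 216 to 425 averaged, and the members past it from 0 to 1 averaged (1 without the second young AL mouse).

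Differences near 0 changed sign with 1 mouse left out, on the log2 scale. With age in AL mice they ranged from -0.26 to 0.84 for Gdnf, -0.23 to 0.21 for Ngfr, -0.035 to 0.079 for Ntrk2 and -0.014 to 0.085 for Sort1. With age in EOD mice they ranged from -0.16 to 0.023 for Bdnf, -0.092 to 0.015 for Ntrk2 and -0.062 to 0.033 for Sort1. With age averaged over diets they ranged from -0.31 to 0.066 for Ntf3, -0.036 to 0.023 for Ntrk2, -0.026 to 0.041 for Sort1 and -0.037 to 0.0803 for Gfra4. With diet in young mice they ranged from -0.21 to 0.89 for Gdnf, -0.29 to 0.13 for Ngfr, -0.0050 to 0.11 for Ntrk2, -0.065 to 0.16 for Ntrk3 and -0.041 to 0.068 for Sort1. With diet in old mice they ranged from -0.034 to 0.022 for Ntrk2 and -0.051 to 0.0056 for Sort1. With diet averaged over ages they ranged from -0.0030 to 0.056 for Ntrk2, -0.10 to 0.027 for Ntrk3 and -0.030 to 0.024 for Sort1, and for the interaction from -0.11 to 0.0039 for Ntrk2 and -0.088 to 0.022 for Sort1. Differences of mean Cntf CPM ranged from -0.135 to 0.0561 with age in AL mice, -0.0601 to 0.0712 with age in EOD mice and -0.084 to 0.0938 with diet in young mice. With lane as a covariate Sort1 turned to 0.013 with age in EOD mice and to 0.0049 for the interaction.

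Mice of different groups share replicate numbers. The correlation of deviations from the group means over the 21 same-numbered pairs ranged from -0.11 to 0.11, with 2 above 0.1, so that the numbers were not taken to pair the mice. With replicate number as a block, 155 genes passed for age in AL mice, 35 under EOD and 250 averaged, 0 genes passed for diet, and 0 members passed. The block turned Sort1 to 0.0027 with age in EOD mice and Gfra4 to -0.0047 with age averaged over diets, and it lost the calls of Pcsk6 (edgeR adjusted p = 0.133), Stat3 (0.148) and, in AL mice, Mapk3 (0.103).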
